A study of Danio rerio with 16 samples.

Results

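The livers of Src(p53-) zebrafish were compared with the livers of wild-type (WT) zebrafish by RNA sequencing. The comparison takes every Src(p53-) library and every WT library of the study, 8 of 16 libraries, 4 on each side. The Src(p53-) line, Tg(fabp10a:src,p53-), carries a src transgene under the promoter of fabp10a, the fatty acid binding protein gene of zebrafish hepatocytes, on a background written p53-, and WT fish are of the AB strain without transgene or p53-. Each side holds 2 libraries of fish on the normal diet (NOR), 1 of overfed fish (DIO) and 1 of fish on the high-fat diet (FAT). All fish started at 3 months of age and were fed for 8 weeks: NOR fish got 0.5 ml of Artemia 1 time a day, DIO fish 2 ml 3 times a day, and FAT fish the NOR ration plus high-fat food 3 times a day. The other libraries come from HBx(p53-) fish, in which the fabp10a promoter drives the X protein of hepatitis B virus, and from HBx,Src(p53-) fish, which carry both transgenes.

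Src is a tyrosine kinase at the inner face of the cell membrane that passes on signals from growth factor receptors and from contacts with the extracellular matrix, and its activity is raised in many tumors. The transcription factor p53 switches on genes that stop the cell cycle, repair DNA or start cell death after damage, and its loss is common in liver cancer. The comparison asks how liver RNA of fish with both changes differs from that of WT fish, across the 3 diets. WT fish carry neither change, so the effects of the src transgene, of p53- and of the different origin of the stocks cannot be told apart here. The line HBx(p53-) shares p53- and lacks the src transgene, so its values are given beside the results that need them.

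Levels were deposited as FPKM, the number of sequenced fragments relative to transcript length and to all mapped fragments of a library, and the read totals of the libraries, which the study gives, were not used here. The summed FPKM of a library was 833561 to 1218152 in Src(p53-) and 855176 to 1034270 in WT, and 20343 to 23002 and 20370 to 22004 genes were above 0. Library profiles correlated at 0.868 to 0.928 within Src(p53-), at 0.839 to 0.901 within WT and at 0.828 to 0.902 between them (Pearson r of log2 levels across genes, which are not independent). Liver markers were high on both sides, with a summed level of 5 hepatocyte genes of 10254 to 21183 FPKM in Src(p53-) and 11855 to 17408 FPKM in WT, while 5 ovary genes summed to at most 0.834 and 0.861 FPKM. The table gives each gene the level of 1 transcript, and 7 of the 853 genes that average 100 FPKM or more have a 0 in some library, so a 0 is reported only as a listing. The study counts as many fish as libraries, so each library was taken as a single fish, and p-values rest on the spread between these fish. In limma this spread also takes in any change of the line difference between diets, because DIO and FAT have 1 library a side. The labels do not give their sex.

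The transgene was checked first. In Src(p53-) livers src, the tyrosine kinase gene itself, had 14.2, 20.3, 47.3 and 4.9 FPKM in the NOR, NOR, DIO and FAT libraries, against 1.43, 0, 4.24 and 1.09 FPKM in those of WT livers. Every Src(p53-) library lay above every WT library, with the FAT library of Src(p53-) nearest to them. On the log2(FPKM + 1) scale, on which all differences here are given and which understates the change of low genes, the difference was 2.94 ± 0.49 (SE, n = 4 each). An exact two-sided permutation test gave p = 0.0286, the smallest that 4 libraries against 4 allow, and over all genes tested limma gave an adjusted p of 0.0867. The exact permutation p was 0.0571 without the DIO library of Src(p53-) or any of the 4 WT libraries, with differences of 2.45 to 3.34. The level of src was 1.47 to 4.15 FPKM in HBx(p53-) livers and 3.47 to 15.7 FPKM in HBx,Src(p53-) livers. Whether reads of the transgene were counted in this entry was not tested.

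The promoter's own gene overlapped between the sides. Expression of fabp10a was 1331 to 2525 FPKM in Src(p53-) and 958 to 1798 FPKM in WT, a difference of 0.28 ± 0.27 (adjusted p = 1 in limma). The labels do not say which p53 change the lines carry, and it was not checked.

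**Figure D1:**
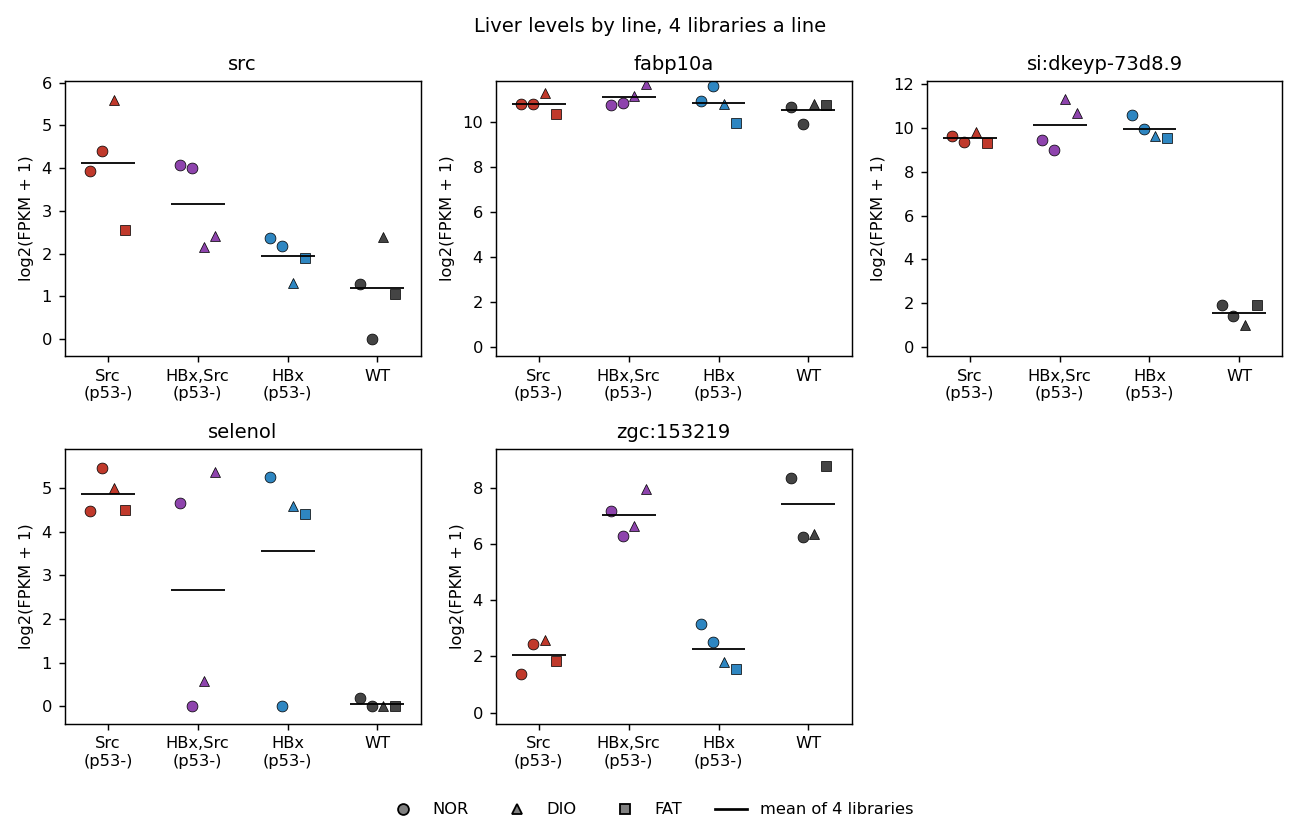
Levels of src, fabp10a and the 3 named genes past the test in the livers of Src(p53-), HBx,Src(p53-), HBx(p53-) and WT fish, as log2(FPKM + 1); each point is 1 library, its shape gives the diet and the bar is the mean of 4 libraries. Src(p53-) libraries lie above all WT libraries for src, si:dkeyp-73d8.9 and selenol and below them for zgc:153219, while fabp10a overlaps.

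Between Src(p53-) and WT livers, 10 genes rose (0.0835%) and 9 fell (0.0751%) of 11978 genes tested, 0.159% in all (limma with diet as a covariate, Benjamini-Hochberg adjusted p under 0.05). Only 3 of the 19 carry a gene symbol: si:dkeyp-73d8.9 and selenol rose and zgc:153219 fell. Without adjustment, 765 genes (6.39%) had a p under 0.05, against 599 if no gene differed. The number of calls depended on single libraries: it was 28 without the first WT NOR library and 6 without the second, 5 without either Src(p53-) NOR library, 4 without either DIO library and 7 without either FAT library. Leaving out a DIO or a FAT library takes that diet out of the comparison. With scaling by median ratios the same number of calls split into 12 higher and 7 lower.

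The largest difference was in si:dkeyp-73d8.9, a gene known only by its clone name. It had 780.4 and 655 FPKM on NOR, 885 FPKM on DIO and 632 FPKM on FAT in Src(p53-) livers, against 2.73 and 1.7 FPKM on NOR, 0.994 FPKM on DIO and 2.82 FPKM on FAT in WT livers. The libraries of each side lay close together and far from the other side, on every diet. The difference was 7.95 ± 0.39 (SE, adjusted p = 0.000114 in limma), and the gene stayed past the threshold without any 1 of the 8 libraries, with a highest adjusted p of 0.00367. High levels were not particular to Src(p53-): HBx(p53-) livers had 751 to 1556 FPKM and HBx,Src(p53-) livers 510.1 to 2532 FPKM.

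Selenoprotein L, encoded by selenol, is a fish protein that contains selenocysteine. Its RNA was at 21.3 and 43 FPKM on NOR, 31.2 FPKM on DIO and 21.7 FPKM on FAT in Src(p53-) livers, against 0.141 FPKM in the first NOR library and listings at 0 in the other 3 libraries of WT livers. All Src(p53-) libraries were thus high and all WT libraries at or near 0, a difference of 4.82 ± 0.37 (adjusted p = 0.00267 in limma; at most 0.0420 without any 1 library). The other p53- lines were mixed, with 37.3, 0, 23 and 20.2 FPKM in HBx(p53-) and 24.3, 0, 0.5 and 40.6 FPKM in HBx,Src(p53-).

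The gene zgc:153219 ran the other way. It had 1.6 and 4.37 FPKM on NOR, 4.97 FPKM on DIO and 2.55 FPKM on FAT in Src(p53-) livers, against 321 and 74.7 FPKM on NOR, 80.3 FPKM on DIO and 441 FPKM on FAT in WT livers. The groups did not overlap, and the difference was -5.37 ± 0.65 (adjusted p = 0.0189 in limma). With 1 library left out in turn, the call was kept in 2 of the 8 fits, with a highest adjusted p of 0.111 in limma. HBx(p53-) livers were as low, at 1.95 to 7.83 FPKM, whereas HBx,Src(p53-) livers had 77.6 to 247 FPKM.

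The other 16 genes past the test are assembled transcripts without a symbol. With 1 library left out in turn, each of these calls was kept in 0 to 3 of the 8 fits. MSTRG.27967, kept in 0, overlapped between the sides. MSTRG.13362 had 435, 370.0, 493 and 385 FPKM in the NOR, NOR, DIO and FAT libraries of Src(p53-), against 0.222, 11.6, 4.21 and 8.41 FPKM in those of WT, a difference of 6.32 (adjusted p = 0.0173). MSTRG.17747 had 850.2, 329, 67.2 and 64.2 FPKM in Src(p53-), against 3.52, 6.8, 7.53 and 0.535 FPKM in WT (5.34, adjusted p = 0.0189). Both were high in every Src(p53-) library, and MSTRG.17747 was higher on NOR than on the other diets there. Lower in Src(p53-) were MSTRG.25348, with 6.04, 1.77, 4.54 and 0 FPKM against 138, 368, 124 and 457 FPKM in WT (-6.18, adjusted p = 0.0178), and MSTRG.28780, with 2.33, 2.69, 2.45 and 1.14 FPKM against 67.4, 30.2, 75.7 and 33.3 FPKM (-3.98, adjusted p = 0.0137). Of all 19 genes, 7 that rose and 7 that fell are listed at 0 in at least 1 of the 8 libraries. All 12 p53- libraries of the 3 lines, which share the WT libraries as their comparison, lay above all 4 WT libraries for 3 of the 10 genes that rose and below them for 4 of the 9 that fell. The 19 genes were chosen by their Src(p53-) and WT values, which enter these counts too. Among the 178 higher and 91 lower genes without overlap and with a difference of at least 1 log2 unit, the counts were 31 above and 25 below. Among all genes tested they were 42 above and 28 below.

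**Figure D2:**
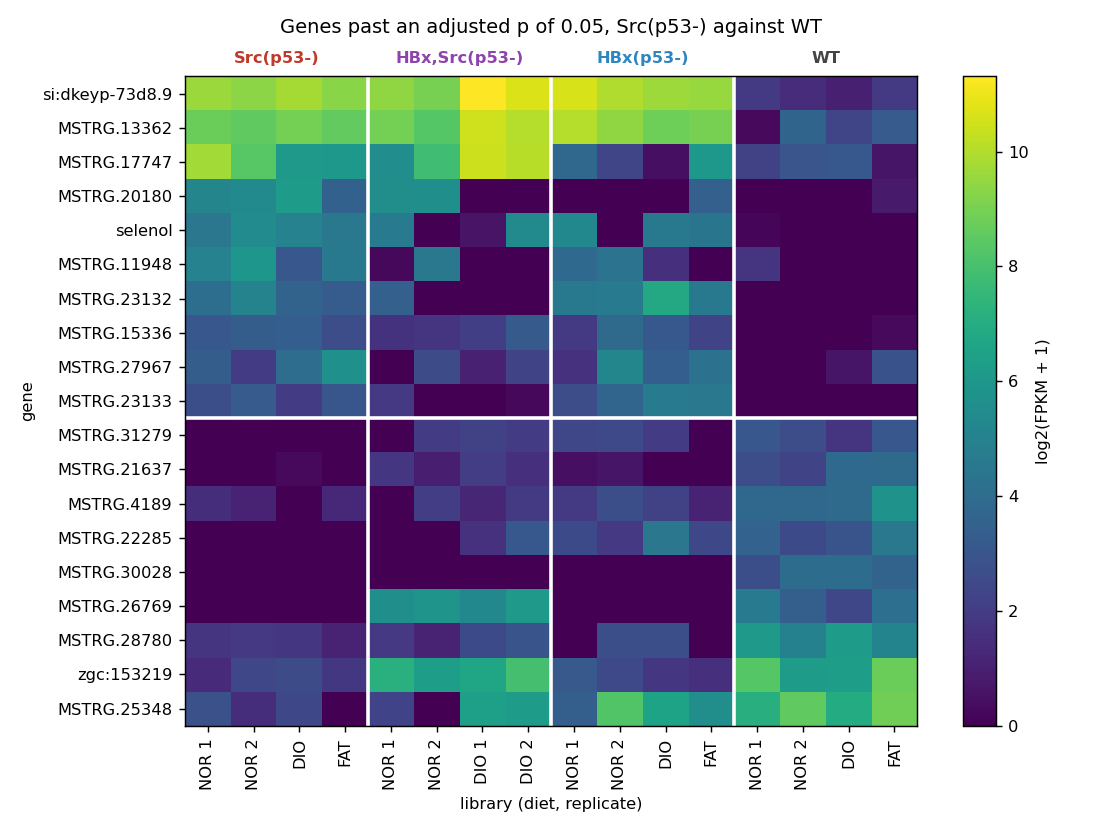
Levels of the 19 genes past an adjusted p of 0.05 between Src(p53-) and WT livers, as log2(FPKM + 1) by color, in all 16 libraries; rows are genes, those that rose above the white line and those that fell below it, and columns are libraries by line, diet and replicate. The rows for si:dkeyp-73d8.9, MSTRG.13362, MSTRG.15336, MSTRG.30028, MSTRG.28780, MSTRG.4189 and MSTRG.21637 separate all 12 p53- libraries from WT, while zgc:153219 and MSTRG.26769 are high in HBx,Src(p53-) as in WT.

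Beyond these calls, 178 genes were higher (1.49% of genes tested) and 91 lower (0.76%) by at least 1 log2 unit with no overlap between the 4 Src(p53-) and the 4 WT libraries, 2.25% together. Without the limit on size, 3.31% of genes did not overlap. If no gene differed, the expected share would be 0.0286, the smallest p of the exact permutation test on 4 libraries against 4, so most such genes may differ by chance. This count is a description without a test, and it was 424, 500, 450 and 406 genes, in that order, without the first WT NOR, the WT FAT, the Src(p53-) DIO and the Src(p53-) FAT library. Of these genes, 52 of the higher and 19 of the lower have a symbol. Among the 24 symbols with the largest differences, 12 in each direction, all but si:dkeyp-73d8.9, selenol and zgc:153219 missed the test, with adjusted p-values of 0.0797 and above in limma.

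Among the higher genes, cyp39a1 encodes the oxysterol hydroxylase of bile acid synthesis. Its level was 22.8 and 49.6 FPKM on NOR, 27 FPKM on DIO and 40.6 FPKM on FAT in Src(p53-) livers, against 6.6 and 0 FPKM on NOR, 9.6 FPKM on DIO and 1.93 FPKM on FAT in WT livers (3.13 ± 0.71, adjusted p = 0.218). Another cytochrome P450, cyp3c3, had 3.34, 8.1, 5.63 and 16.8 FPKM in the NOR, NOR, DIO and FAT libraries of Src(p53-), against 0, 0.422, 0.366 and 0 FPKM in WT (2.81 ± 0.46, adjusted p = 0.0797). Every Src(p53-) library of both genes was above every WT library, with the smallest gap on DIO. Levels of cyp39a1 in the HBx(p53-) libraries were 41.8, 46.9, 4.44 and 46.4 FPKM, and those of cyp3c3 24.7, 12.2, 0 and 8.23 FPKM. In HBx,Src(p53-) livers these genes were at 21.4 to 62.9 and 8.23 to 36.6 FPKM, above every WT library. The retinol dehydrogenase gene rdh8a had 16.2, 42, 4.22 and 5.07 FPKM against 0.367, 2.88, 1.36 and 1.35 FPKM in WT (2.41), highest on NOR. Prostaglandin reductase, encoded by ptgr1.1, likewise had 10.8, 8.9, 3.17 and 4.74 FPKM against 0.316, 0.404, 0.147 and 1.02 FPKM in WT (2.34, adjusted p = 0.0867). In HBx(p53-) and HBx,Src(p53-) livers rdh8a was at 2.99 to 15.2 and 3.71 to 9.16 FPKM, also above every WT library. Levels of ptgr1.1 in HBx(p53-), at 0.149 to 4.5 FPKM, overlapped with WT.

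The heat shock cognate gene hsc70 codes for a cytosolic chaperone. It had 3.51, 5.07, 19.9 and 16.7 FPKM in Src(p53-), against 2.39, 0, 0.365 and 0.975 FPKM in WT (2.53), with the DIO and FAT libraries of Src(p53-) above its NOR libraries. In HBx(p53-) and HBx,Src(p53-) livers it was at 44.3 to 124 and 27.3 to 162 FPKM, above every Src(p53-) library. The SH3-domain binding protein gene sh3bp5b had 8.31, 12.2, 2.6 and 3.69 FPKM against 0, 0, 0.159 and 0.679 FPKM in WT (2.51). It was also above every WT library in HBx(p53-), at 0.979 to 5.74 FPKM, and in HBx,Src(p53-), at 3.48 to 6.27 FPKM. The interferon-induced gene ifit14 differed by 2.48, si:dkey-253d23.3 by 2.37, and xkr9, of a family that holds lipid scramblases in mammals, by 2.19. In HBx(p53-) and HBx,Src(p53-) livers si:dkey-253d23.3 was at 2.08 to 4.91 and 1.58 to 4.2 FPKM, also above every WT library. For ifit14 and xkr9 the HBx(p53-) libraries overlapped with WT. Of the abundant genes, tcn2, which encodes a carrier protein of vitamin B12, had 509, 550.1, 714 and 509.8 FPKM in Src(p53-), against 223, 218, 279 and 449.5 FPKM in WT. Its gap was narrow on FAT and the difference was 1.01 ± 0.31 (adjusted p = 0.44).

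Among the lower genes, s100v2, of the S100 family of calcium-binding proteins, was listed at 0 in 3 Src(p53-) libraries with 0.399 FPKM on FAT, against 3.07, 3.76, 8.53 and 3.71 FPKM in the NOR, NOR, DIO and FAT libraries of WT (-2.32 ± 0.38, adjusted p = 0.0797). The filamin-interacting protein gene filip1l had 4.06, 6.32, 4.56 and 6.07 FPKM, against 11.7, 40.1, 10.9 and 58 FPKM (-1.99). The gene farsa, for the alpha subunit of the tRNA synthetase that loads phenylalanine, had 60.6, 76.9, 20.6 and 17.4 FPKM, against 86.1, 278, 147 and 122 FPKM (-1.96). In filip1l and farsa the WT libraries differed among themselves by more than the gap between the groups. In HBx(p53-) and HBx,Src(p53-) livers filip1l was at 1.62 to 8.95 and 0.985 to 9.19 FPKM, also below every WT library. Both sides lay in a narrower range in msraa, a methionine sulfoxide reductase that repairs oxidized proteins, with 20.9, 17.3, 25.4 and 18.1 FPKM in Src(p53-) against 55.2, 56.4, 51.7 and 76.2 FPKM in WT (-1.50 ± 0.37, adjusted p = 0.253). For msraa the HBx(p53-) libraries, at 38.3 to 95.8 FPKM, lay above all Src(p53-) libraries.

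The retinol dehydrogenase gene rdh10b, whose product makes retinal from retinol, differed by -1.44, at 26.7, 23.8, 19.5 and 36.4 FPKM in Src(p53-) against 59.4, 122, 96.6 and 38 FPKM in WT, so the FAT libraries nearly met. The genes drc1, a ciliary dynein regulator, bet1l, a Golgi SNARE, mtres1, a mitochondrial factor, and plxnb2b, a semaphorin receptor, differed by -1.98, -1.52, -1.32 and -1.32. All 4 stood at low levels, under 11 FPKM in each of the 8 libraries apart from 42.1 FPKM of drc1 in the WT DIO library. Of these, bet1l was also below every WT library in HBx(p53-) and HBx,Src(p53-), at up to 0.73 and 0.632 FPKM.

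**Figure D3:**
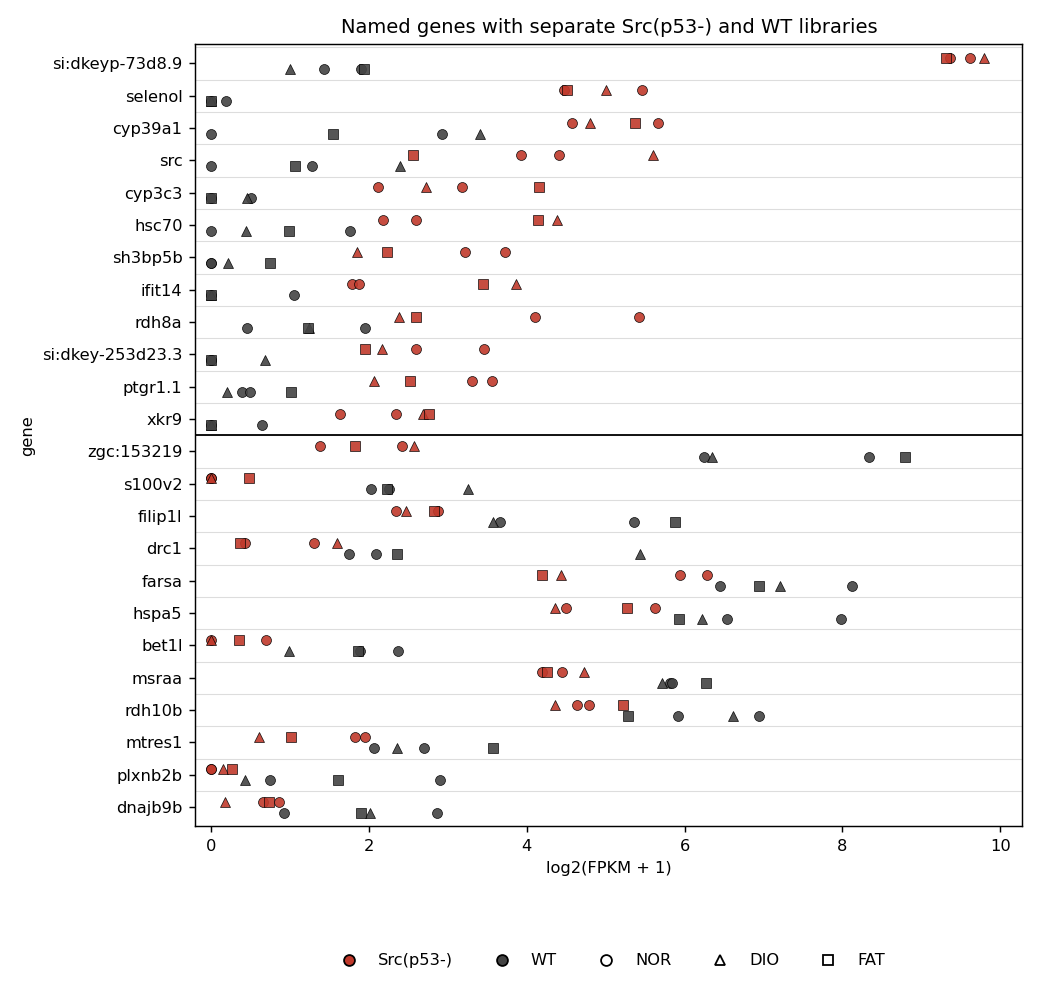
Levels of the 24 genes with a symbol and the largest differences among those that did not overlap between Src(p53-) and WT livers, as log2(FPKM + 1); each point is 1 library, red for Src(p53-) above grey for WT, its shape gives the diet, and the line divides 12 higher from 12 lower genes. The gap is widest for si:dkeyp-73d8.9, selenol and zgc:153219 and narrow for rdh10b, mtres1 and dnajb9b.

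The interferon response and antigen presentation genes tested had higher mean levels in Src(p53-) than in WT livers, and none passed the test. Interferons are released by cells that sense viral or misplaced nucleic acid, and they switch on antiviral genes and the genes that load antigen onto MHC molecules. Of 43 genes listed, 30 were matched and 16 tested, and all 16 were higher in Src(p53-) than in WT livers, against 55.5% of all genes tested. Their median difference was 0.90, against 0.05 for all genes. Of them 7 had an unadjusted p under 0.05 (4.23% of all genes tested were higher and 2.15% lower at that p), and 3 did not overlap between the groups (2.22%). The filter for testing used the mean of both sides. In WT, ifit14, ifit8 and isg15 had at most 1.07, 1.56 and 0.853 FPKM. They passed the filter through their Src(p53-) levels, and they are part of these counts, of the median and of the averages below. All of them are among the 7, and ifit14 and isg15 are among the 3. The filter thus fixed part of these values in advance, and the list was not summarized without these genes. Averaged over the 16 genes, the level on the log2 scale was 3.21, 3.42, 3.62 and 2.86 in the NOR, NOR, DIO and FAT libraries of Src(p53-), against 2.23, 2.44, 2.22 and 2.60 in those of WT. Every Src(p53-) library was above every WT library in this average, and the gap was smallest on FAT. This was not particular to Src(p53-): the HBx(p53-) libraries, which lack the src transgene, averaged 2.72, 2.90, 2.64 and 3.07. They too lay above every WT library, and the HBx(p53-) FAT library lay above that of Src(p53-).

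The 3 genes without overlap were ifit14, cd74a and isg15. The interferon-induced protein of ifit14 binds viral RNA in mammals, and its gene had 2.45 and 2.68 FPKM on NOR, 13.5 FPKM on DIO and 9.94 FPKM on FAT in Src(p53-), against 1.07 FPKM in the first WT NOR library and listings at 0 in the other WT libraries. The invariant chain of MHC class II, cd74a, had 30.0, 34.9, 38.2 and 32.5 FPKM, against 8.59, 18.7, 21.9 and 8.77 FPKM in WT (1.28 ± 0.41, unadjusted p = 0.0124 and adjusted p = 0.493 in limma). The ubiquitin-like modifier isg15 had 3.17, 1.27, 4.55 and 2.57 FPKM, against 0.535, 0.797, 0 and 0.853 FPKM (1.3 ± 0.42). For cd74a the Src(p53-) libraries were within a narrow range and the WT libraries were not.

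The antiviral enzyme gene rsad2 had 4.32, 2.07, 17.6 and 13.2 FPKM in Src(p53-), against 2.33, 2.49, 0 and 2.65 FPKM in WT, so only its DIO and FAT libraries were clearly higher (1.67 ± 0.65). The transcription factor gene irf1b had 3.91, 4.99, 9.01 and 0.821 FPKM, against 0.411, 0.188, 3.26 and 0.506 FPKM (1.41 ± 0.41), and overlapped through its FAT library. The guanylate binding protein gene gbp1 was at 29.5, 74.8, 53.1 and 4.01 FPKM, against 18.2, 3.46, 4.48 and 19.1 FPKM, with FAT the reverse of the other diets. Smaller differences were seen in ifit8 (1.2), irf9 (0.91), cd74b (0.88), irf7 (0.55) and stat1a (0.37), and the smallest, 0.11, in b2m, the light chain of MHC class I. The signs of b2m, stat1a, ifih1, psmb12 and socs1a turned in some comparisons without 1 library, leaving 13 to 16 of 16 higher, with list medians of 0.73 to 0.95.

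By diet, the median of the list was 0.99 on NOR with 15 of 16 genes higher, 1.1 on DIO with 14 higher and 0.03 on FAT with 8 higher, the last 2 with 1 library a side. Here and in the line comparisons below, the list includes ifit14, ifit8 and isg15, which passed the filter through their Src(p53-) levels. The line HBx,Src(p53-) against HBx(p53-), which adds the src transgene in libraries that the comparison with WT does not use (2 NOR and 2 DIO for HBx,Src(p53-), which has no FAT library, and 2 NOR, 1 DIO and 1 FAT for HBx(p53-)), had a median of 0.97 with 15 of 16 higher, where all genes had a median of 0.28 and 68.6% higher. The average level of the 16 genes there was 3.27 to 4.48 on the log2 scale in HBx,Src(p53-) and 2.64 to 3.07 in HBx(p53-), without overlap. Taken singly, 3 of the 16 were higher without overlap, where 9.41% of all genes tested were. Src(p53-) against HBx(p53-) gave a median of 0.33 with 13 of 16 higher, against 0.19 for all genes.

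**Figure D4:**
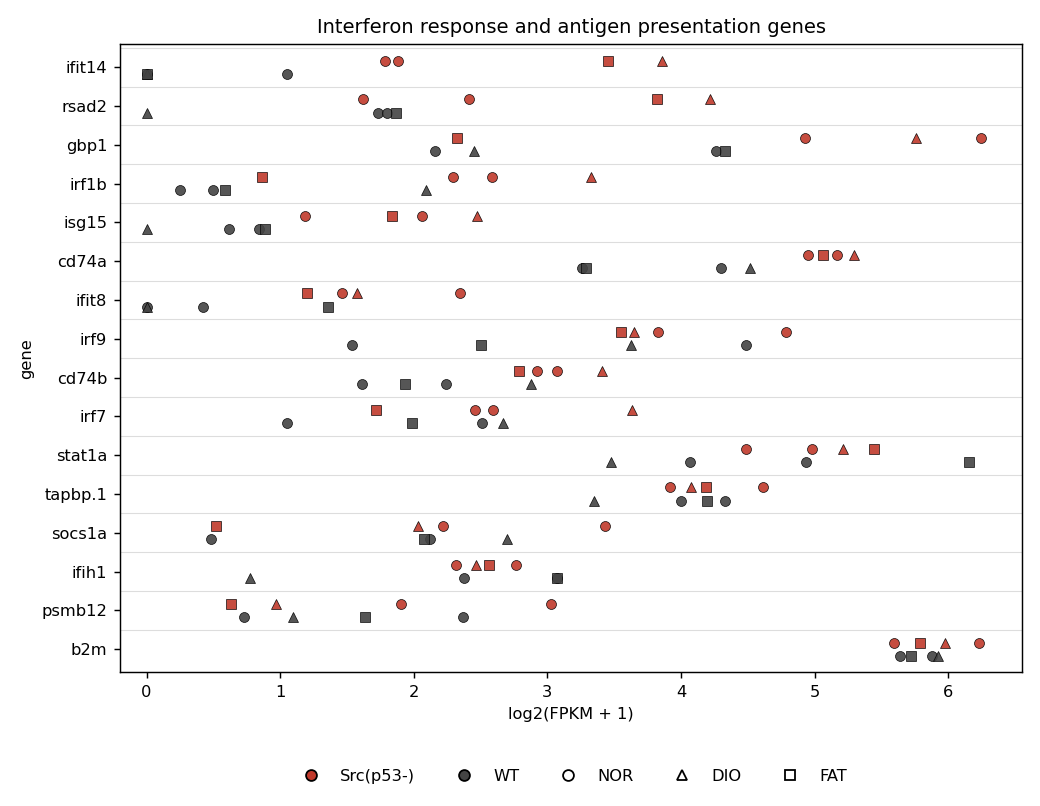
Levels of the 16 interferon response and antigen presentation genes tested in Src(p53-) (red) and WT (grey) livers, as log2(FPKM + 1); each point is 1 library and its shape gives the diet. The Src(p53-) points of ifit14, isg15 and cd74a lie to the right of all WT points, those of b2m and tapbp.1 overlap with them, and the FAT point of gbp1 is reversed.

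Immune cell markers were measured beside these genes. In bulk liver, fewer cells of a type and less RNA per cell cannot be told apart. Of 5 macrophage genes matched, mpeg1.1, a pore-forming protein of macrophages, had 3.17, 4.81, 2.68 and 2.89 FPKM in Src(p53-), against 0.655, 2.59, 1.95 and 0.573 FPKM in WT, without overlap (0.91 ± 0.40). The complement gene c1qc had 4.16 to 9.4 FPKM in Src(p53-) and 1.52 to 7.33 FPKM in WT. The third macrophage gene tested, lgmn, went the other way, at 28.4 to 44.5 FPKM in Src(p53-) and 26.1 to 78.0 FPKM in WT (-0.39 ± 0.40). The summed level of all 5 overlapped, at 40.6 to 53.6 and 31.6 to 81.2 FPKM. Lymphocyte genes summed to 0.296 to 8.86 FPKM in Src(p53-) and 0 to 6.36 FPKM in WT, and those that reached 1 FPKM were lck and zap70, kinases of the T cell receptor. The neutrophil peroxidase gene mpx was at 0 in all 8 libraries, and mmp13a was at 0 to 1.85 FPKM in Src(p53-) and 0.844 to 6.62 FPKM in WT. In HBx,Src(p53-) livers, where 15 of the 16 interferon genes were also higher than in HBx(p53-) livers, mpeg1.1 had 5.55 to 10.1 FPKM against 1.22 to 2.37 FPKM in HBx(p53-), and c1qc 10.4 to 22.8 FPKM against 2.56 to 8.33 FPKM, both without overlap. Of all genes tested, 9.41% were higher without overlap in that comparison. The 3 macrophage genes tested were all higher there, with a median difference of 1.34. The part of these cells in the interferon values was not tested.

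Among genes of the endoplasmic reticulum (ER), the chaperone hspa5 (BiP), the main folding helper of the ER, had 21.7 and 48.2 FPKM on NOR, 19.5 FPKM on DIO and 37.5 FPKM on FAT in Src(p53-), against 91.8 and 252 FPKM on NOR, 73.6 FPKM on DIO and 60.0 FPKM on FAT in WT. No library overlapped, and the difference was -1.73 ± 0.50 (unadjusted p = 0.00748, adjusted p = 0.392 in limma). Its co-chaperone dnajb9b, which is not in the ER list summarized below, was lower as well, at 0.135 to 0.825 FPKM against 0.9 to 6.29 FPKM (-1.31). The disulfide isomerase gene pdia6 went the other way, with 28.9, 42.7, 17.5 and 25.5 FPKM against 12.2, 11.8, 8.82 and 13.8 FPKM (1.18 ± 0.37). Of 55 ER genes tested, none passed the test, and 20 were higher and 35 lower. Without overlap 1 was higher and 1 lower, against 2.22% and 1.09% of all genes tested. The median of the ER list was -0.14, with medians of -0.21 to -0.19 after scaling. The direction of the ER list depended on single libraries, with medians of -0.26 to 0.22 and 13 to 34 genes higher when each library was left out in turn. HBx(p53-) libraries had 176, 9.4, 29.9 and 11.4 FPKM of hspa5, on either side of the Src(p53-) values. HBx,Src(p53-) libraries had 593, 143, 28.8 and 17.5 FPKM of hspa5 and 0.43 to 21.5 FPKM of dnajb9b, both overlapping with WT.

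None of the 17 tested genes of the p53 network passed the test, with 10 higher, 7 lower and a median of 0.07. Of the 17, the gene without overlap was the p53 target ccng1, which encodes cyclin G1, where 1.09% of all genes tested were lower without overlap. It was at 631, 662, 639 and 598 FPKM in Src(p53-) against 997, 1296, 684 and 989 FPKM in WT (-0.61 ± 0.26, adjusted p = 0.746 in limma). The 4 Src(p53-) libraries were close together, and the WT DIO library was the one nearest to them. The cell death gene baxa, whose product opens the outer membrane of mitochondria, had 10.4, 8.07, 20.7 and 27.4 FPKM against 69.5, 31, 29.2 and 21.2 FPKM (-1.14), lower on NOR and DIO and higher on FAT. In HBx(p53-) livers ccng1 was at 672 to 1006 FPKM. The 24 genes of Src kinase signaling had a median of 0.03, with src the highest, and the 14 tested of the cell cycle and DNA replication a median of 0.00.

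Oxidative phosphorylation genes, which code for the respiratory chain and the ATP synthase of mitochondria, were higher in 69 of 73 cases, with a median of 0.28 (0.20 to 0.22 after scaling) and no gene past the test. Among them cox6b2, of cytochrome c oxidase, had 48.6, 67.5, 47.1 and 33.6 FPKM against 29.9, 33.4, 31.8 and 28.8 FPKM (0.61), and atp5mf, of the ATP synthase, 423, 443, 198 and 201 FPKM against 168, 227, 169 and 214 FPKM (0.61). The difference was largest on NOR: the median was 0.71 on NOR, 0.25 on DIO and -0.41 on FAT. Without 1 library at a time, 53 to 71 of the 73 genes were higher.

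Ribosome biogenesis and splicing genes had medians below that of all genes. Ribosome biogenesis genes were lower in 41 of 50 cases, with a median of -0.17 (-0.24 to -0.23 after scaling), and splicing genes in 31 of 42, with a median of -0.17 (-0.25 to -0.23). No gene of either passed the test, and without 1 library 6 to 30 and 7 to 27 of them were higher. The nucleolar gene pes had 4.43, 8.42, 9.07 and 4.19 FPKM against 8.5, 19.7, 11.5 and 7.92 FPKM (-0.76), emg1, a methyltransferase of ribosomal RNA, 10.1, 20.9, 8.53 and 7.86 FPKM against 23.8, 37.8, 17 and 8.07 FPKM (-0.73), and the splicing factor gene srsf1b 15.9, 18.9, 24.9 and 21.8 FPKM against 39.8, 25, 26.1 and 62.9 FPKM (-0.80). Of these srsf1b did not overlap, and pes and emg1 did. Lower without overlap were 1 of the 42 splicing genes and 1.09% of all genes tested. For dkc1, which modifies ribosomal RNA, the diets ran apart, with 29.8, 79.6, 185 and 162 FPKM in Src(p53-) against 142, 267, 196 and 30.7 FPKM in WT.

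No gene of the metabolic lists passed the test. Amino acid, urea and one-carbon genes were higher in 31 of 43 cases (median 0.37), and xenobiotic and bile acid genes in 15 of 21 (median 0.34). Glycolysis and gluconeogenesis genes, with 11 higher and 11 lower, and fatty acid oxidation genes, with 13 of 21 higher, both had a median of 0.06, close to that of all genes, and cholesterol synthesis genes, with 10 of 15 higher, had 0.04. The branched-chain aminotransferase gene bcat2 had 90.4, 141, 41.7 and 59.8 FPKM in Src(p53-), against 31.9, 43.9, 10.6 and 39.4 FPKM in WT (1.4 ± 0.40). Cystathionine beta-synthase, cbsa, which takes homocysteine towards cysteine, had 222, 672, 317 and 280.0 FPKM, against 209, 191, 177 and 119.7 FPKM (0.99), and acat1, a mitochondrial thiolase of the fatty acid oxidation list, 129.8, 195, 172 and 136 FPKM, against 91.7, 74.5, 72.2 and 97.7 FPKM (0.90). Both cbsa and acat1 were without overlap. Each of the amino acid, fatty acid oxidation and glycolysis lists held 1 gene higher without overlap, of 43, 21 and 22 tested. Of all genes tested, 2.22% were higher without overlap. The drug-metabolizing enzyme gene cyp1a had 1179, 2562, 889 and 879 FPKM, against 957, 611, 473 and 516 FPKM (1.01), and ppp1r3ca of the glycolysis and gluconeogenesis list, which directs a phosphatase to glycogen, 2112 to 2608 FPKM against 699 to 1682 FPKM (0.97), without overlap.

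Lipid genes gave no common direction. Of 18 lipogenesis and lipid storage genes tested, 6 were higher and 12 lower (median -0.09), with elovl6, a fatty acid elongase, at 0.655, 11.8, 0.216 and 1.53 FPKM in Src(p53-) against 2.89, 10.7, 4.16 and 62 FPKM in WT (-1.96 ± 0.86) and plin2, which coats lipid droplets, at 3.1, 2.17, 12.1 and 2.09 FPKM against 21.2, 2.56, 23.9 and 7.48 FPKM (-1.25 ± 0.56). The iron hormone gene hamp (hepcidin) had 0.151, 1.09, 0.736 and 0.674 FPKM against 5.12, 7.13, 7.98 and 0.101 FPKM (-1.54), lower on NOR and DIO. The oxidative stress factor gene nfe2l2a had 30.2, 44.3, 16.9 and 34.3 FPKM against 15.4, 14.4, 15.8 and 16.6 FPKM (0.90), without overlap.

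Several genes that the study takes up for diet varied widely between libraries of the same side, and no line difference averaged over the diets was detectable in them. Stearoyl-CoA desaturase, scd, had 492 and 3272 FPKM on NOR, 9.88 FPKM on DIO and 455 FPKM on FAT in Src(p53-), against 1.57 and 728 FPKM on NOR, 852 FPKM on DIO and 3087 FPKM on FAT in WT (0.17 ± 2.19). Glucokinase, gck, had 179, 3649, 59.9 and 0.991 FPKM, against 1.64, 293, 1559 and 539.7 FPKM (-0.76 ± 2.37). The 2 libraries of the same line and diet differed by more than the lines did on average over the diets. By diet the signs were opposite: scd differed by 4.88 on NOR, -6.29 on DIO and -2.76 on FAT. For gck the differences were 4.86, -4.68 and -8.08. From qPCR, the study reports raised scd in Src(p53-) fish on NOR and FAT, and raised gck on NOR and DIO. The iron exporter gene slc40a1 had 260.0, 109, 150.0 and 105 FPKM against 25.1, 27.9, 339 and 1016 FPKM (0.21 ± 0.93), with Src(p53-) higher on NOR and lower on DIO and FAT. Of 18 such genes, 15 were matched and 13 tested, none passed the test, and their differences ran from -1.16 in hmgcra, the rate-limiting enzyme of cholesterol synthesis, to 0.54.

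The direction of many lists differed between the diets. Proteasome genes, whose products degrade ubiquitin-marked proteins, were higher in Src(p53-) in 39 of 41 cases on NOR (median 0.91), in 9 on DIO (-0.35) and in 2 on FAT (-1.12). The NOR libraries of WT differed, with averages over this list of 2.97 and 4.25 on the log2 scale. Those of Src(p53-) had 4.12 and 4.71, so the second WT NOR library lay above the first Src(p53-) NOR library. Cholesterol synthesis genes had medians of 1.06 on NOR, -0.26 on DIO and -1.43 on FAT, and ER genes 0.19, 0.12 and -0.99. On NOR the cholesterol list averaged 4.36 and 4.69 in Src(p53-) against 3.13 and 4.24 in WT. The median of all genes moved with the diet too, from 0.27 on NOR through -0.04 on DIO to -0.25 on FAT. The difference between the obesity diets and NOR was tested gene by gene as an interaction of genotype and diet: limma called 0 of 11978 genes (0.0%) and 764 genes had an unadjusted p under 0.05. DIO and FAT are 1 library a side each, so the diet and the library cannot be told apart there.

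**Figure D5:**
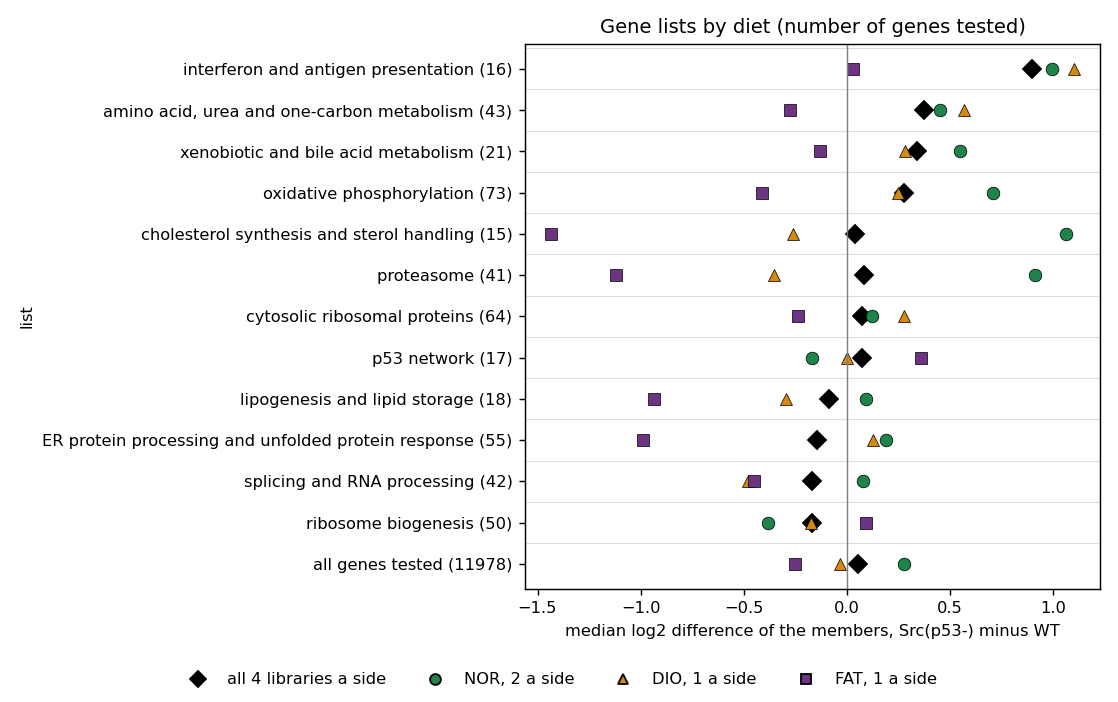
Median log2 difference between Src(p53-) and WT livers of the genes of 12 lists and of all genes tested, with the number of genes in brackets; diamonds take all 4 libraries a side, circles the 2 NOR libraries a side, triangles the DIO and squares the FAT library. The interferon list is farthest to the right for all 4 libraries a side, at 0.90. It includes ifit14, ifit8 and isg15, which passed the filter for testing through their Src(p53-) levels. The proteasome and cholesterol lists spread widest across the diets, at 0.91 to -1.12 and 1.06 to -1.43.

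Src(p53-) was set directly against HBx(p53-), a comparison of lines that share p53-. The fit took all 16 libraries, so the WT libraries entered its filter, its diet terms and its estimate of spread. In limma, 9 genes rose and 6 fell of 12317 (0.122%), and 941 had an unadjusted p under 0.05. The named gene that rose, zgc:171534, had 33, 45.9, 25.2 and 44.5 FPKM in Src(p53-), against 0.0506, 0, 0 and 0.0524 FPKM in HBx(p53-) (5.18 ± 0.74, adjusted p = 0.0154 in limma). The named gene that was lower was myl7, a myosin light chain of heart muscle, listed at 0 in 3 Src(p53-) libraries with 0.0881 FPKM on DIO, against 9.62, 4.12, 15.5 and 4.91 FPKM in HBx(p53-) (-3.06 ± 0.35, adjusted p = 0.00211 in limma). WT livers were near 0 as well, at 0, 0, 0.581 and 0.104 FPKM, and HBx,Src(p53-) livers had 4.87 to 19.7 FPKM. For myl7 the HBx lines thus stood above both Src(p53-) and WT. None of the 19 genes called between Src(p53-) and WT was called here. Of the 10 that rose over WT, 6 were higher and 4 lower in Src(p53-) than in HBx(p53-). Of the 9 that fell, MSTRG.28780 was higher, at 1.14 to 2.69 FPKM against 0 to 5.65 FPKM and with overlap, 6 were lower, and MSTRG.26769 and MSTRG.30028 are listed at 0 in all libraries of both lines.

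The 19 genes were also followed where the src transgene was added to HBx(p53-), in libraries the comparison with WT does not use. Of the 10 genes that rose in Src(p53-), 2 were higher in HBx,Src(p53-) than in HBx(p53-) and 8 lower, and of the 9 that fell, 4 were higher and 4 lower. Among all genes 68.6% were higher there. MSTRG.17747 was among the 2, at 45.8, 229.8, 1402 and 1082 FPKM in HBx,Src(p53-) against 13.2, 4.15, 0.389 and 63.9 FPKM in HBx(p53-), and the lowest HBx,Src(p53-) library was under the highest HBx(p53-) library. The wider set of 178 genes higher in Src(p53-) without overlap held 110 (61.8%) that were higher in HBx,Src(p53-), against the 68.6% of all genes.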

How the data were processed

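Total RNA of 16 zebrafish livers was sequenced, and the 8 libraries of Src(p53-) and WT were compared. Per the labels and methods, the authors aligned reads to GRCz10 (danRer10) with HISAT2 2.1.0 and deposited FPKM values made with StringTie 1.3.4d and Ballgown. The submitters' notes also name FastQC 0.11.5, SAMtools 1.7 and R 3.5.3. The library kit is not known to mark strand, so overlapping and antisense genes, and near-identical copies, cannot be told apart.

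The 35885 entries gave 35857 genes after summing 28 entries that shared a name, 11960 of them with a symbol, matched by symbol or RefSeq transcript (11790 of 12235 RefSeq names). The 11978 genes averaging 1 FPKM or more over the 8 libraries were tested with limma 3.58.1 in R 4.3.3 on log2(FPKM + 1) with diet as a covariate and a mean-variance trend, with Benjamini-Hochberg adjustment and a threshold of 0.05. The fit was tested on simulated data. FPKM are not counts, so no count model was used, and the read totals that the study gives were not used here. Tables were made with Python 3.11.15, pandas 2.3.3 and numpy 2.4.6.

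Genes named are src, fabp10a, the 12 largest differences in each direction among genes with a symbol past the test or without overlap, the 2 smallest p-values of each gene list, the most abundant genes without overlap, and genes the study names. IDs without a symbol and some list members are given in part only, and 1 gene that the rule names is not reported here. The members and gene lists were chosen with earlier results of these data known. Alternatives were another pseudocount, other filters and scalings, no diet term, no trend, all 16 libraries, NOR alone, a replicate block and leaving out each library.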

Additional observations from a re-analysis of the deposited data

Results flagged for a closer look

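In 7 of 60 groups of 4 libraries tested, 1 library stood apart from the other 3 by Dixon's criterion at the 95% level, on the log2 scale. Chance does this in about 1 in 20 groups of untied values. In 5 of the 7 the other 3 libraries are all listed at 0, so that any value above 0 stands apart and this rate does not apply. In Src(p53-) livers it was s100v2, with 0.399 FPKM in the FAT library and 0 in the other 3. In WT livers, selenol had 0.141 FPKM, ifit14 1.07 FPKM and xkr9 0.567 FPKM in the first NOR library, and si:dkey-253d23.3 had 0.61 FPKM in the DIO library, each with 0 in the other 3 libraries. The dynein regulator gene drc1 had 42.1 FPKM in the WT DIO library, against 2.37 to 4.14 FPKM in the other WT libraries. The hepatocyte gene fabp10a had 958 FPKM in the second WT NOR library, against 1628 to 1798 FPKM in the others. In all of these genes but fabp10a the Src(p53-) and WT libraries did not overlap.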

How the results depend on the processing

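The 19 calls became 1 without a filter on low values, 9 with a mean of at least 5 FPKM, 34 without the diet covariate, 39 in a fit on all 16 libraries, 0 on the NOR libraries alone (912 genes at an unadjusted p under 0.05 in limma) and 4 to 28 when each library was left out in turn. Other pseudocounts, scalings and no trend gave 19 to 21 calls. With a replicate block there were 6 calls. The numbers tie only 2 NOR pairs (r = 0.21 between same-numbered deviations) and are not known to pair the fish. The difference in src was 2.45 to 3.46 and the genes without overlap numbered 355 to 500 with 1 library left out, which eases the condition of no overlap. Of 113 named genes, lgmn not among them, 11 changed sign under some alternative, none of them past the test. On NOR alone gck was at 4.86 and ifih1 at -0.19. With 1 library left out, the differences ran from -3.24 to 1.68 in gck, -2.39 to 2.33 in scd, -0.53 to 1.36 in slc40a1, -0.58 to 1.31 in acat2, -1.34 to 0.17 in dkc1, -0.66 to 0.039 in nop56, -0.029 to 0.23 in b2m, -0.30 to 0.44 in ifih1, -0.30 to 0.57 in psmb12, -0.38 to 0.79 in socs1a and -0.085 to 0.73 in stat1a. The causes were not tested. Scaling moved the median of all genes from 0.05 to between -0.01 and 0.00. Differences of low genes are understated on the log2(FPKM + 1) scale.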

Other observations

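Digestive enzymes of the exocrine pancreas were measured at low levels. The pancreatic amylase gene amy2a had 4.05, 2.22, 7.28 and 2.05 FPKM in the NOR, NOR, DIO and FAT libraries of Src(p53-), against 0.151, 0.185, 0 and 2.5 FPKM in WT (1.61 ± 0.52), and the elastase gene ela2l 2.23, 5.7, 12.2 and 32.8 FPKM against 1.37, 3.53, 0.45 and 5.61 FPKM (1.64 ± 0.56). Both overlapped through single libraries, and amy2a passed the filter for testing through its Src(p53-) levels. In HBx(p53-) livers amy2a was at 3.23 to 34.4 FPKM and ela2l at 6.65 to 51.8 FPKM. HBx,Src(p53-) livers had 2.66 to 19.9 and 9.89 to 46.7 FPKM. Both lines were above every WT library for both genes. The matrix gene fn1a (fibronectin) had 1.13, 22.5, 1.34 and 6.35 FPKM in Src(p53-), against 0.155, 0.189, 0.325 and 1.6 FPKM in WT, and lamb1a (laminin) 10.2, 12.3, 3.38 and 13.6 FPKM against 3.41, 2.35, 2.67 and 6.58 FPKM. The lysosomal gene gla had 8.79, 12.8, 0.907 and 4.83 FPKM against 1.2, 2.45, 0 and 3.05 FPKM. The clock repressor gene nr1d1 (Rev-erb alpha) had 115, 164, 114 and 134 FPKM against 67.7, 61.2, 105 and 80.4 FPKM, without overlap. None of these passed the test. Higher without overlap were 1 of the 18 clock genes tested and 2.22% of all genes tested.

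Some genes past the test shared a pattern over all 4 lines, and they were chosen after their values were seen. MSTRG.13362 stood at 0.557 to 0.706 of the level of si:dkeyp-73d8.9 in all 12 p53- libraries (median 0.62), and at 0.0814 to 6.81 in the 4 WT libraries. MSTRG.30028 is listed at 0 in all 12 p53- libraries, against 5.6, 14.7, 14.9 and 11.1 FPKM in WT. MSTRG.26769 is listed at 0 in all Src(p53-) and HBx(p53-) libraries, with 49.1, 57.4, 38.1 and 67.6 FPKM in HBx,Src(p53-) and 24.6, 9.75, 4.3 and 16.7 FPKM in WT.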
